A study of Mus musculus with 18 samples.

Results

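The 10 genes described here encode the machinery that turns a β-adrenergic signal into protein kinase A (PKA) activity: the β3-adrenergic receptor (Adrb3), the stimulatory G protein α subunit (Gnas), 3 adenylyl cyclases (Adcy3, Adcy6, Adcy9), 2 catalytic subunits (Prkaca, Prkacb) and 3 regulatory subunits (Prkar1a, Prkar2a, Prkar2b) of PKA. They were taken by gene symbol from a table of 17672 genes, and each of the 10 was among the 10178 genes with enough counts to be tested. Prkar2b was compared with the other subunits throughout.

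When noradrenaline or another agonist binds a β-adrenergic receptor, the stimulatory G protein activates adenylyl cyclases at the membrane, and these make cAMP from ATP. In its resting state PKA is a complex of a regulatory subunit dimer with a pair of catalytic subunits, and cAMP binding to the regulatory subunits frees the catalytic subunits to phosphorylate their substrates. In brown adipocytes PKA phosphorylates perilipin and hormone-sensitive lipase, which starts lipolysis, and it phosphorylates CREB, which binds cAMP response elements in promoters. The type II regulatory subunit RIIβ, the product of Prkar2b, is abundant in adipose tissue.

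The cells were differentiated brown adipocytes of an immortalised mouse brown preadipocyte line. All 18 libraries came from cells that carried a lentiviral shRNA against Abhd5, the co-activator of the lipase ATGL, and a doxycycline (Dox)-inducible, shRNA-resistant, mCherry-tagged ABHD5. Without Dox the labels give the genotype as ABHD5 KD. With 1 µg/ml Dox, which switches the construct on, the labels give it as WT. The study's description of this experiment gives 24 h of Dox, and the labels give 24 to 48 h. In each of these states cells received DMSO, 10 nM isoproterenol (ISO, a pan-β-adrenergic agonist) or 20 µM SR-3420 (a ligand that releases ABHD5 from perilipin and so activates lipolysis without the receptor) for 3 h, which made 6 groups of 3 replicates. Exposure to Dox and re-expression of ABHD5 cannot be told apart, since no group had the one without the other, and the "WT" cells still carried the shRNA. Replicates are independent experiments according to the study, but the labels do not tie a replicate number to a shared culture or day, so p-values measure the spread between these libraries.

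Library totals ran from 689910 to 1956565 counts, with a median of 1145729. The counted length of a gene followed its intron length (r = 0.98 on a log10 scale over 16536 genes), so the counts were treated as reads mainly from introns. This reading is not certain, since the study names counting over genes, and the table does not say whether reads in exons were left out. The counts say nothing directly about protein, and reads from introns do not give amounts of mature mRNA. Levels are CPM (counts scaled to a common library size) after TMM normalization, and levels of different genes are compared only per kilobase (kb) of counted length. Abhd5, the gene targeted by the shRNA, gave 52.6 ± 4.71 CPM (SD, n = 3) in DMSO without Dox and 574 ± 86.1 CPM with Dox, a 10.98-fold rise (edgeR adjusted p = 2.44e-14). ISO raised it 2.84-fold without Dox, to 149 ± 21.9 CPM (edgeR adjusted p = 3.34e-07), and 1.44-fold with Dox (adjusted p = 0.00502). The rise with Dox was 5.56-fold in ISO and 9.17-fold in SR-3420. Its ISO interaction was -0.98 (edgeR adjusted p = 0.0194), so the difference between the states was not the same under every stimulus. The table does not tell the construct from the endogenous gene, 24026 of whose 29908 bases were counted. A construct without introns would add no intron reads. The rise with Dox therefore goes against a purely intronic count unless the construct holds intron sequence, which the sources used here do not say. The 10 highest genes took 16.3 to 26.5% of the counts in 17 libraries and 35.6% in SR-3420 with Dox replicate 1. The adipocyte markers Adipoq, Plin1, Pparg, Cidec, Lpl and Fabp4 were counted in all 18 libraries. So were the brown adipocyte markers Cidea, Ppargc1a and Prdm16, whereas Dio2 had 0 counts in all 18 and Ucp1 had 0 counts in 4. Markers of macrophages summed to 4.50 to 20.2 CPM per library and markers of endothelial cells to 0 to 6.15 CPM.

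ISO raised the counts of the cyclases Adcy3 and Adcy6 and of the regulatory subunit Prkar1a in both states of the cells. It raised Prkar2b with Dox but not without. That difference passed a test of its own, but was known when the 10 genes were chosen. Without Dox, 4 of the 10 genes (Adcy3, Adcy6, Prkar1a and Prkar2a) were higher after ISO at an edgeR quasi-likelihood adjusted p of 0.05 or less, and 0 were lower, beside 28.0% of all genes tested that passed in either direction and 14.5% that were higher. With Dox, 5 of 10 (Adrb3, Adcy3, Adcy6, Prkar1a and Prkar2b) were higher and 0 lower, beside 32.5% of all genes in either direction and 16.4% higher. The median log2 fold change of the 10 genes was 0.41 without Dox and 0.68 with Dox, against -0.01 and -0.02 over all genes. In none of the 9 comparisons did a gene of the 10 reach an unadjusted p below 0.05 in the lower direction. These are bulk libraries, in which more RNA per cell and more cells of one kind cannot be told apart.

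Fewer of them passed for SR-3420. Without Dox 1 of 10, Prkar2b, was higher, beside 0.766% of all genes called in either direction and 0.698% called higher, and with Dox 2 of 10, Adcy6 and Prkar2b, were higher, beside 9.90% in either direction and 6.53% higher. The median log2 fold change of the 10 genes was 0.14 without Dox and 0.17 with Dox, against -0.003 and -0.01 over all genes. In each state the ISO and SR-3420 comparisons share the same 3 DMSO libraries, so they are not independent of each other.

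In DMSO, 0 of the 10 genes passed for Dox against no Dox in edgeR, DESeq2 or limma-voom, beside 1.18% of all genes in edgeR, and 1 of 10, Adcy3, had an unadjusted p under 0.05 (0.0437). In ISO-treated cells 2 of 10, Adcy3 and Prkar2b, were higher with Dox, beside 12.7% of genes in either direction and 7.92% higher. In SR-3420-treated cells 1 of 10, Prkar2b, was higher, beside 11.5% and 7.26%.

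**Figure D1:**
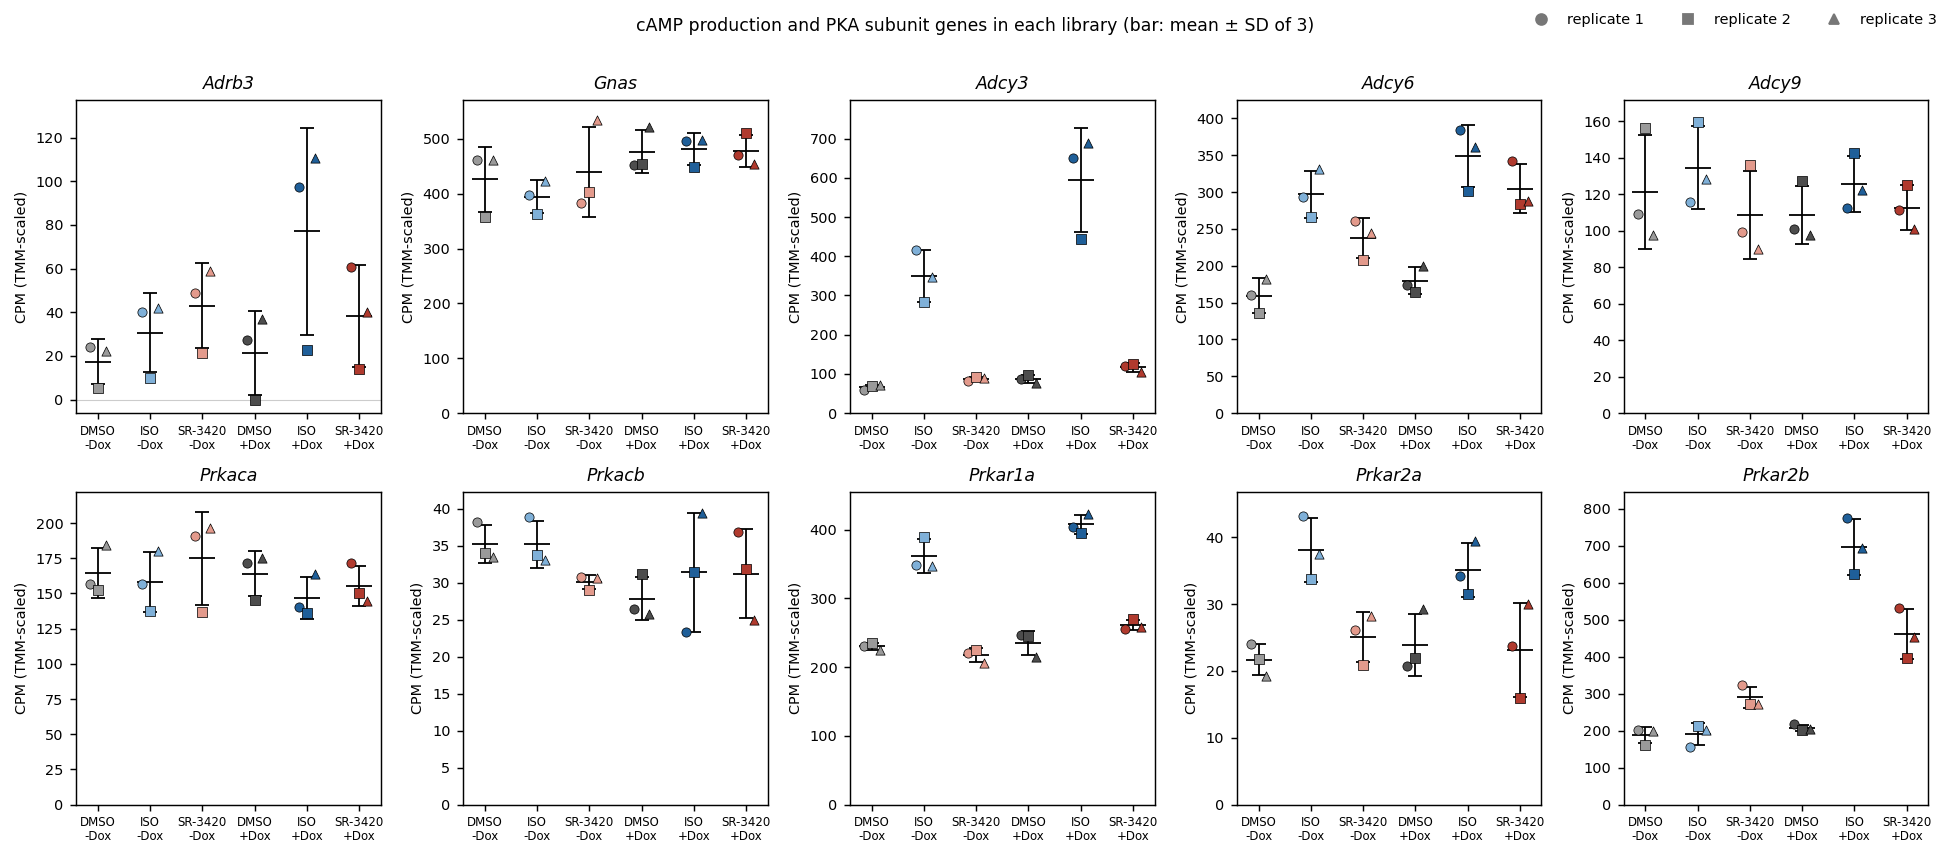
Each panel shows 1 gene, with TMM-scaled CPM on the vertical axis and the 6 groups on the horizontal axis (3 libraries each, symbol shape by replicate number, bars mean ± SD). Prkar2b stands at 623 to 774 CPM in ISO with Dox against 157 to 212 CPM in ISO without Dox, Adcy3 is high in both ISO groups, and in the panels of Gnas, Adcy9, Prkaca and Prkacb no group stands apart; the Adrb3 axis reaches below 0 only so that the error bar of a group with a 0 can be drawn.

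Prkar2b (NM_011158) lies on the minus strand of chromosome 12, 32643344 to 32746144 in mm9, and 94741 of its 102801 bases were counted. In DMSO it had 201, 162 and 199 CPM without Dox and 217, 201 and 203 CPM with Dox. ISO left it at 157, 212 and 203 CPM without Dox and brought it to 774, 623 and 693 CPM with Dox. All 3 libraries of ISO with Dox lay above every other library of the series, whereas the libraries of ISO without Dox overlapped those of DMSO.

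SR-3420 gave 323, 273 and 273 CPM of Prkar2b without Dox and 533, 397 and 452 CPM with Dox. Both sets lay above their own DMSO libraries, and the set with Dox lay above the set without. The order of the group means was therefore ISO with Dox (697 ± 75.8 CPM), SR-3420 with Dox (461 ± 68.3 CPM), SR-3420 without Dox (290 ± 29.1 CPM), DMSO with Dox (207 ± 8.46 CPM), ISO without Dox (190 ± 29.7 CPM) and DMSO without Dox (187 ± 22.0 CPM; SD, n = 3 each).

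Between neighbours in that order, ISO with Dox exceeded SR-3420 with Dox by a log2 fold change of 0.60 (edgeR adjusted p = 0.00237), and SR-3420 with Dox exceeded SR-3420 without Dox by 0.67 (edgeR adjusted p = 0.0016). The step of 0.48 from DMSO with Dox up to SR-3420 without Dox missed the threshold (edgeR adjusted p = 0.0975), and the 3 lowest groups did not differ beyond their spread (edgeR adjusted p = 0.585 and 0.934 between neighbours).

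On the log2 scale Prkar2b responded to ISO by 0.02 (SE 0.151, 95% interval -0.29 to 0.33, edgeR adjusted p = 0.934) without Dox and 1.75 (SE 0.144, interval 1.45 to 2.04, adjusted p = 1.26e-10) with Dox, a 3.36-fold rise. The difference between these responses, the interaction of ISO with Dox, was 1.73 (SE 0.208, interval 1.30 to 2.15, edgeR adjusted p = 1.32e-05), and by its p it ranked 3 of 10178 genes. Prkar2b was the only one of the 10 genes to pass in this interaction, beside 2.18% of all genes in either direction and 1.61% with a positive difference. This interaction was already known when the 10 genes were chosen, so its p and rank describe it and are not fresh support. In the 12 fits that each left out 1 of the DMSO or ISO libraries the interaction kept to 1.61 to 1.82, with adjusted p up to 0.000188.

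With SR-3420, Prkar2b rose by 0.62 (SE 0.147, interval 0.32 to 0.92, edgeR adjusted p = 0.0358) without Dox and by 1.15 (SE 0.144, interval 0.86 to 1.45, edgeR adjusted p = 2.396e-06) with Dox. Without SR-3420 with Dox replicate 1, the library with the uneven counts, the latter was 1.03 (edgeR adjusted p = 4.50e-05). The call without Dox did not survive leaving out any 1 of the 6 libraries: the log2 fold change then ran from 0.53 (without SR-3420 without Dox replicate 1) to 0.67 (without DMSO without Dox replicate 1), and the adjusted p from 0.0522 to 0.233. The interaction of SR-3420 with Dox was 0.53 (SE 0.205, interval 0.11 to 0.95, edgeR adjusted p = 0.264) and did not pass; 0 of the 10 genes passed in it in edgeR, DESeq2 or limma-voom, beside 0.757% of all genes in edgeR, and Prkar2b was the 1 with an unadjusted p under 0.05. Dox against no Dox was 0.14 (edgeR adjusted p = 0.802) for Prkar2b in DMSO, 1.87 (adjusted p = 3.12e-10) in ISO and 0.67 (adjusted p = 0.0016) in SR-3420. With library totals in place of TMM scaling the last of these (0.44, edgeR adjusted p = 0.0578) and the response to SR-3420 without Dox (0.57, adjusted p = 0.179) did not pass. That scaling also put the median of all genes at -0.22 and -0.057.

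Adipocyte markers were highest in the groups where Prkar2b was highest. Their summed level was 2304 to 2813 CPM in DMSO without Dox, 3288 to 3493 in ISO without Dox, 3323 to 3643 in SR-3420 without Dox, 2710 to 3219 in DMSO with Dox, 5003 to 5179 in ISO with Dox and 3844 to 5061 in SR-3420 with Dox. Of the 6 adipocyte markers tested, 2 rose and 1 fell with ISO without Dox (median log2 fold change 0.20) and 6 rose with ISO with Dox (0.86). With SR-3420, 3 rose without Dox (0.602) and 4 with Dox (0.75). With Dox against no Dox, 4 were higher in ISO (1.16) and 3 in SR-3420 (0.45), and 3 had a positive ISO interaction that passed (median 0.76). In ISO without Dox the summed level lay above DMSO although Prkar2b did not pass. Brown adipocyte markers summed to 49.0 to 103 CPM in DMSO without Dox and 258 to 375 CPM in ISO without Dox, and to 85.4 to 104 CPM in DMSO with Dox and 516 to 1115 CPM in ISO with Dox. Of the 4 tested, 3 rose with ISO without Dox, 4 with ISO with Dox and 3 with SR-3420 with Dox. With Dox against no Dox, 3 were higher in ISO (median log2 fold change 1.33) and 2 in SR-3420 (1.06). Their median interaction was 0.96 for ISO and 0.62 for SR-3420. In both interactions 0 of 4 passed, beside 2.18% and 0.757% of all genes, too few for a 0 of 4 to be informative. The summed level of preadipocyte and fibroblast markers ran from 509 to 1177 CPM over the 18 libraries. Of the 5 tested, 1 rose and 1 fell with ISO without Dox, 2 fell with ISO with Dox (median log2 fold change of the 5 -0.40), and 0 passed for SR-3420 or in either interaction. The part of these markers in the Prkar2b result was not tested.

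**Figure D2:**
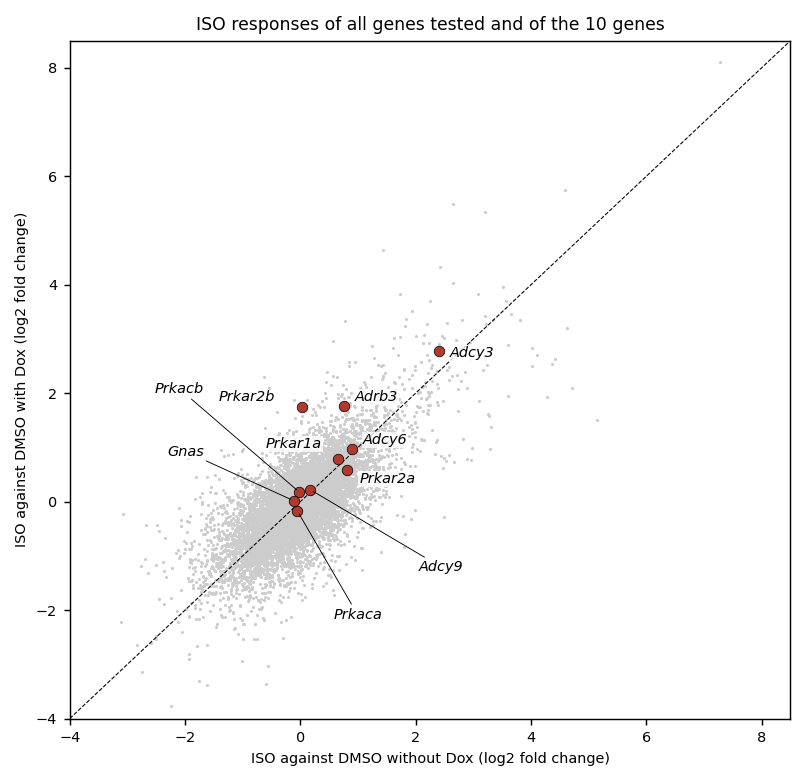
Every gene tested is a grey point, placed by its log2 fold change for ISO against DMSO without Dox (horizontal) and with Dox (vertical), with the 10 genes in red and a dashed line of equal response. Prkar2b sits at 0.02 and 1.75, far above the line, while Adcy3 (2.4 and 2.77), Adcy6 (0.89 and 0.96) and Prkar1a (0.65 and 0.79) sit close to it.

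The other regulatory subunits responded to ISO in another pattern. Prkar1a (NM_021880, chromosome 11, 109512263 to 109530962, plus strand), which encodes the type I subunit RIα, had 230, 235 and 225 CPM in DMSO without Dox and 348, 390 and 348 CPM in ISO without Dox. With Dox it had 246, 245 and 215 CPM in DMSO and 404, 395 and 423 CPM in ISO. The ISO libraries stood above the DMSO libraries in both states, and the log2 fold changes were 0.65 (SE 0.118, edgeR adjusted p = 0.000129) and 0.79 (SE 0.116, adjusted p = 4.96e-06). SR-3420 gave 220, 225 and 206 CPM without Dox and 256, 269 and 259 CPM with Dox, and neither log2 fold change against DMSO passed (-0.08, interval -0.33 to 0.16; 0.15, interval -0.09 to 0.39).

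Prkar2a (NM_008924, chromosome 9, 108594474 to 108651842, plus strand), which encodes RIIα, was counted at only 16 to 50 reads per library. It had 24.0, 21.8 and 19.3 CPM in DMSO without Dox and 43.2, 33.7 and 37.5 CPM in ISO without Dox, with no overlap, and the log2 fold change, 0.80 (SE 0.242), passed at an edgeR adjusted p of 0.0135. That call was lost without DMSO without Dox replicate 3 (0.72, edgeR adjusted p = 0.065), without ISO without Dox replicate 1 (0.72, adjusted p = 0.0562) and with library totals in place of TMM scaling (0.63, adjusted p = 0.0666, where the median of all genes was -0.19). With Dox the levels were 20.7, 21.9 and 29.2 CPM in DMSO and 34.2, 31.5 and 39.5 CPM in ISO, again without overlap, and the log2 fold change, 0.58 (SE 0.229), missed the threshold at an edgeR adjusted p of 0.0513. It passed without DMSO with Dox replicate 3 (0.73, edgeR adjusted p = 0.0307) or ISO with Dox replicate 2 (0.68, adjusted p = 0.0442). It also passed in edgeR with RLE size factors (adjusted p = 0.0478), or at least 10 counts in every library (adjusted p = 0.0492) and in limma-voom (adjusted p = 0.0387), at 0.56 to 0.60. Under SR-3420 its log2 fold changes had intervals of -0.31 to 0.70 without Dox and -0.52 to 0.51 with Dox.

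The catalytic subunits did not pass in any of the 9 comparisons. Prkaca (NM_008854, chromosome 8, 86496877 to 86520341, plus strand), which encodes Cα, had group means between 147 and 175 CPM, the highest only 1.19 times the lowest, and its 9 log2 values ran from -0.17 to 0.08. Prkacb (NM_011100, chromosome 3, 146392543 to 146475910, minus strand), which encodes Cβ, had group means between 27.9 and 35.3 CPM from 23 to 55 counts per library, and its 9 log2 values ran from -0.36 to 0.41. No pair of neighbouring groups differed for either gene beyond the spread between libraries. The widest 95% limits over the 9 comparisons were -0.59 and 0.38 for Prkaca and -0.80 and 1.03 for Prkacb.

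Set beside Prkar2b, the interactions of ISO with Dox were -0.12 for Prkaca (interval -0.55 to 0.32), 0.19 for Prkacb (-0.43 to 0.81), 0.14 for Prkar1a (-0.20 to 0.48) and -0.22 for Prkar2a (-0.91 to 0.46). All 4 intervals held 0 and ended below the lower limit of Prkar2b, 1.30. The ratio of Prkar2b to each of these subunits within a library, which does not depend on library scaling, was then compared on the log2 scale. The interaction of that ratio with Dox was 1.83 against Prkaca, 1.58 against Prkacb, 1.58 against Prkar1a and 1.97 against Prkar2a for ISO. For SR-3420 the same quantities were 0.66, 0.13, 0.27 and 0.77. A two-sided exact permutation test of the Dox labels within DMSO and within the stimulus gave an adjusted p of 0.16 for each ISO ratio and of 0.16, 0.755, 0.366 and 0.16 for SR-3420, over 8 ratios. Exchanging the DMSO labels alone left the ISO interaction as large or larger in most arrangements, which held p up whatever the size of the difference in ISO. The ISO ratios are therefore given as a description, and this p counts neither for nor against a difference.

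**Figure D3:**
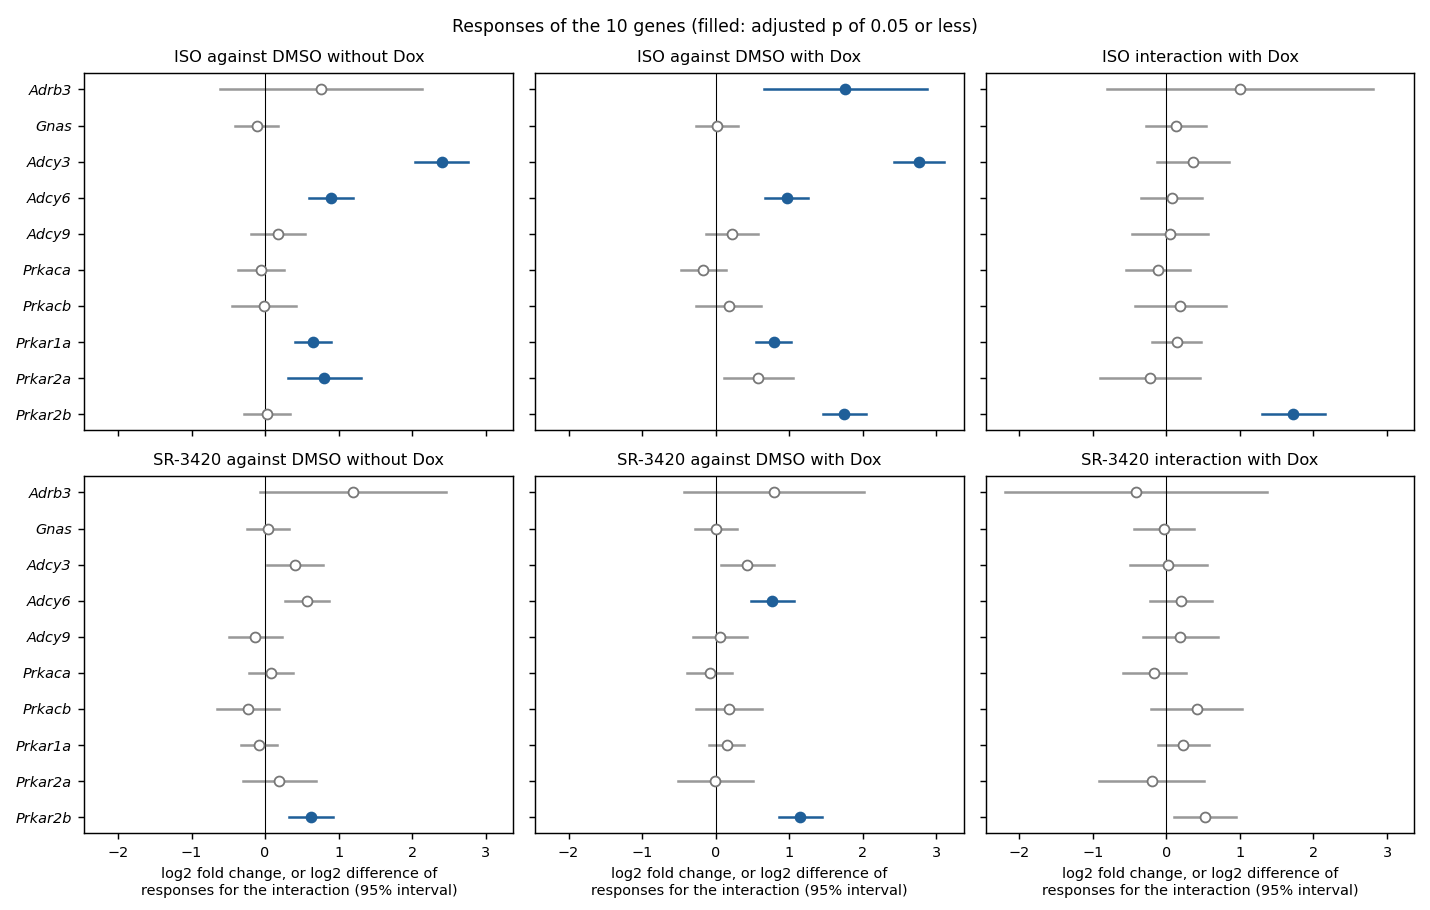
Points are log2 fold changes against DMSO, or in the right-hand panels log2 differences between the responses with and without Dox, and lines are 95% intervals of the edgeR fit; filled blue points have an adjusted p of 0.05 or less. In the ISO interaction panel Prkar2b is the only filled point, at 1.73 with an interval of 1.30 to 2.15, and the widest interval in each panel is that of Adrb3.

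Among the regulatory subunits, per kb of counted length, Prkar1a was the highest with a mean over libraries of 18.6 CPM per kb, followed by Prkar2b with 3.57 and Prkar2a with 0.592 CPM per kb. The catalytic subunits stood at 9.88 (Prkaca) and 0.439 CPM per kb (Prkacb). The share of Prkar2b in the summed regulatory subunit counts per kb was 12.0%, 9.77% and 12.2% in DMSO without Dox and 12.2%, 11.5% and 12.8% in DMSO with Dox. It was 6.56%, 7.91% and 8.37% in ISO without Dox and 23.2%, 19.9% and 20.5% in ISO with Dox. ISO thus went with a lower share without Dox, where Prkar1a rose and Prkar2b did not pass, and with a higher share with Dox.

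SR-3420 gave a share of 18.7%, 16.02% and 17.1% without Dox and 24.7%, 19.0% and 21.5% with Dox. The libraries of ISO with Dox and SR-3420 with Dox overlapped (means 21.2% and 21.7%), while the levels of Prkar2b (log2 difference 0.60) and of Prkar1a (0.64, edgeR adjusted p = 0.000185) were both higher in ISO with Dox. Against DMSO the share differed by -3.73 percentage points for ISO without Dox, 9.06 for ISO with Dox, 5.91 for SR-3420 without Dox and 9.55 for SR-3420 with Dox. The groups did not overlap in any of these 4 contrasts, nor between Dox and no Dox in ISO (13.6 points) or in SR-3420 (4.46 points), and the exact permutation p was 0.1 in each of the 6, which is the smallest that 3 against 3 can give. Dox in DMSO changed the share by 0.818 points (exact permutation p = 0.5). The size of these differences depends on the division by counted length. With raw counts the share differed from DMSO by -10.4 points for ISO without Dox, 16.6 for ISO with Dox, 11.9 for SR-3420 without Dox and 17.2 for SR-3420 with Dox, in the same directions. Between Dox and no Dox it differed by 28.9 points in ISO, 7.19 in SR-3420 and 1.89 in DMSO. RNA counts do not give the makeup of the PKA holoenzyme, and values per kb rest on the counted lengths in the table. Read as intron counts, they do not give shares of mature mRNA. Prkar1b, a further regulatory subunit outside the 10 genes, was left out of the share and had 1 to 25 counts per library.

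**Figure D4:**
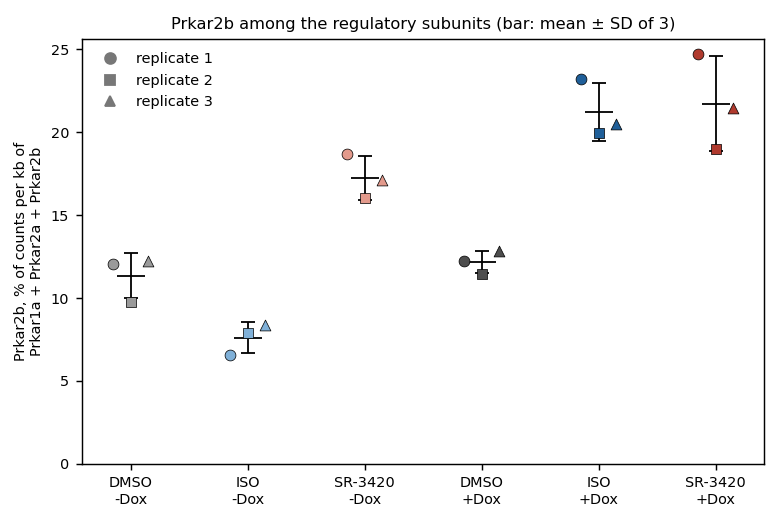
The vertical axis is the percentage of Prkar2b in the counts per kb of Prkar1a, Prkar2a and Prkar2b together, by group (points are libraries, bars mean ± SD, n = 3). The share falls to 6.56 to 8.37% in ISO without Dox and lies at 19.0 to 24.7% in the ISO and SR-3420 groups with Dox.

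The largest responses to ISO were those of a cyclase. Adcy3 (NM_001159537, chromosome 12, 4133397 to 4213524, plus strand) had 59.6, 68.0 and 71.0 CPM in DMSO without Dox and 417, 285 and 348 CPM in ISO without Dox, and with Dox it had 86.7, 96.8 and 77.5 CPM in DMSO and 652, 443 and 688 CPM in ISO. Every ISO library exceeded every other library of the series. The log2 fold change was 2.404 (SE 0.176, edgeR adjusted p = 2.03e-11) without Dox and 2.77 (SE 0.166, adjusted p = 2.63e-13) with Dox, or 5.29-fold and 6.81-fold. The level after ISO was 0.76 log2 units higher with Dox than without (SE 0.148, edgeR adjusted p = 0.000524), but the difference between the responses themselves, 0.36 (interval -0.13 to 0.86, adjusted p = 0.527), did not pass. SR-3420 gave 81.3 to 91.2 CPM without Dox and 104 to 126 CPM with Dox, above the DMSO libraries in each state but without passing (log2 fold changes 0.40 and 0.43, edgeR adjusted p = 0.522 and 0.129). Cenpo overlaps the far end of Adcy3 on the other strand, and without strand its reads cannot be told from those of Adcy3.

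Adcy6 (NM_007405, chromosome 15, 98420421 to 98438064, minus strand), a cyclase that calcium inhibits, had 160, 136 and 183 CPM in DMSO without Dox and 174, 164 and 200 CPM with Dox. ISO gave 293, 267 and 331 CPM without Dox and 384, 302 and 361 CPM with Dox, and SR-3420 gave 261, 207 and 245 CPM without Dox and 343, 283 and 288 CPM with Dox. All stimulated libraries lay above all 6 DMSO libraries. The response to ISO was 0.89 (SE 0.147, edgeR adjusted p = 3.74e-05) without Dox and 0.96 (SE 0.143, adjusted p = 5.56e-06) with Dox, with an interaction of 0.07 (interval -0.35 to 0.49). The response to SR-3420 passed with Dox (0.77, SE 0.144, edgeR adjusted p = 0.000502) and missed the threshold without it (0.57, SE 0.146, adjusted p = 0.061; 0.66 and adjusted p = 0.0482 without SR-3420 without Dox replicate 2), and the difference between these responses was 0.20 (interval -0.22 to 0.62, edgeR adjusted p = 0.757). Replicate 2 was the lowest of the 3 in all 6 groups.

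Adcy9 (NM_009624, chromosome 16, 4284886 to 4420498, minus strand), a widely expressed cyclase, and Gnas showed no response that passed. Adcy9 had group means of 108 to 134 CPM and log2 values of -0.15 to 0.22 over the 9 comparisons, and Gnas (NM_022000, chromosome 2, 174109821 to 174172243, plus strand) had group means of 394 to 481 CPM and log2 values of -0.12 to 0.29. For neither gene did a comparison pass, and the smallest adjusted p was 0.358 for Adcy9 and 0.199 for Gnas, both from edgeR. Per kb of counted length Adcy6 stood at 22.7, Adcy3 at 2.95 and Adcy9 at 0.951 CPM per kb on average, so Adcy6 was the highest of the 3 cyclases. In DMSO without Dox they stood at 14.2, 0.901 and 0.972 CPM per kb, so Adcy3 lay above Adcy9 on average but not there. The table's entry for Gnas spans the imprinted complex locus, in which several transcripts share exons and Nespas and AF085738 lie on the other strand, so its counts are not those of the stimulatory α subunit transcript alone.

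Adrb3 (NM_013462, chromosome 8, 28336248 to 28340060, minus strand), the main β-adrenergic receptor of rodent adipocytes, has little intron, and only 562 of its bases were counted. It had 24.0, 5.44 and 22.3 CPM in DMSO without Dox, 39.98, 9.91 and 42.0 CPM in ISO without Dox and 48.8, 21.5 and 58.8 CPM in SR-3420 without Dox. With Dox it had 27.4, 0 and 37.1 CPM in DMSO, 97.5, 22.8 and 111 CPM in ISO and 60.6, 13.9 and 39.95 CPM in SR-3420. Replicate 2 was the lowest library of all 6 groups, with 0 to 37 counts, and every pair of groups overlapped. Within each replicate number the ISO and the SR-3420 library stood above the DMSO library in both states.

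The order of the group means of Adrb3 was ISO with Dox (77.0 ± 47.4 CPM), SR-3420 without Dox (43.0 ± 19.3), SR-3420 with Dox (38.2 ± 23.4), ISO without Dox (30.6 ± 17.98), DMSO with Dox (21.5 ± 19.2) and DMSO without Dox (17.3 ± 10.3), and no neighbours differed beyond their spread. ISO with Dox against DMSO with Dox passed (log2 fold change 1.76, SE 0.543, edgeR adjusted p = 0.0133). The call was lost without DMSO with Dox replicate 2 (1.29, edgeR adjusted p = 0.055), ISO with Dox replicate 1 (1.53, adjusted p = 0.0607) or ISO with Dox replicate 3 (1.44, adjusted p = 0.0769), and in DESeq2 (1.85, adjusted p = 0.158) and limma-voom (2.46, adjusted p = 0.0503). Without Dox the response to ISO was 0.76 (interval -0.61 to 2.13, edgeR adjusted p = 0.425), though within each replicate number the ISO library stood above the DMSO library. It passed without a filter on low counts (0.78, edgeR adjusted p = 0.0269). The interaction of 1.00 (interval -0.81 to 2.81) did not pass. Dox in ISO-treated cells (1.28, edgeR adjusted p = 0.116) passed when ISO with Dox replicate 2 was left out (1.76, adjusted p = 0.0129) and without a filter on low counts (1.29, adjusted p = 1.06e-07).

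Since PKA acts on transcription through CREB, and fatty acids through nuclear receptors such as PPARs, the 250 bases upstream of each annotated start were searched on both strands for the full cAMP response element TGACGTCA, for its half-site TGACG (the full element contains overlapping half-sites) and for the direct repeat AGGTCANAGGTCA that PPAR and RXR bind. The full element was in 1 of the 10 windows, that of Prkar1a, 49 to 42 bases before the start, beside 2.24% of all 17672 windows. A half-site was in 4 of 10 (Adcy9, Prkaca, Prkacb and Prkar1a), beside 22.5% of all windows and 27.96% of the windows of tested genes. The direct repeat was in 0 of 10, beside 0.0566% of all windows. The window of Gnas lies inside Nespas, before the start of the entry that spans the whole locus. It need not be the promoter of the stimulatory α subunit transcript. A match, or none, describes the letters of these windows and says nothing about binding. The windows of Prkar1a, Prkar2b and Adcy3 are shown because these 3 genes carry the contrast between an ISO response in both states (Prkar1a, Adcy3) and one that depended on Dox (Prkar2b). They run 5′ to 3′ toward the start, with full elements and half-sites in capitals:
Prkar1a (mm9, chr11:109512013-109512262, plus strand): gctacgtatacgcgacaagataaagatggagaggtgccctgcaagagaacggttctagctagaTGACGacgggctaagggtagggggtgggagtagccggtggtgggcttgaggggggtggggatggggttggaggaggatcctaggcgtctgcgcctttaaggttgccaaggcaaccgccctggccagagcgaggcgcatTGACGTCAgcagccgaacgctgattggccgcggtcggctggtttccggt
Prkar2b (mm9, chr12:32746145-32746394, minus strand): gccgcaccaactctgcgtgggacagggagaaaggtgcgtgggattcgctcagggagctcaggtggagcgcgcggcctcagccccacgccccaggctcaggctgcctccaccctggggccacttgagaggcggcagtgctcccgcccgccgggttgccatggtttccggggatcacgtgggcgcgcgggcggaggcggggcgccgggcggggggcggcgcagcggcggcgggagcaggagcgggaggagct
Adcy3 (mm9, chr12:4133147-4133396, plus strand): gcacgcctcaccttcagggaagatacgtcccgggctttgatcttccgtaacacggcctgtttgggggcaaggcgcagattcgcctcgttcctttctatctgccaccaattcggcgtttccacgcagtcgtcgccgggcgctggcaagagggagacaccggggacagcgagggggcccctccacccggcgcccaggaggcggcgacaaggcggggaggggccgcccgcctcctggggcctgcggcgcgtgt

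The window of Prkar2b holds neither element and has 75.6% G and C, against 61.6% for Prkar1a and 68.8% for Adcy3. Of the 4 genes with a half-site, Prkar1a rose with ISO and the other 3 did not pass in any comparison. Their half-sites, in capitals, are shown with up to 15 flanking bases on either side, at 120 and 6 bases before the start for Prkaca, 102 for Prkacb and 24 for Adcy9:
Prkaca, far site (mm9, chr8:86496742-86496776, plus strand): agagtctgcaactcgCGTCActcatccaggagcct
Prkaca, near site (mm9, chr8:86496856-86496876, plus strand): ggtgggctgcgggggCGTCAc
Prkacb (mm9, chr3:146475993-146476027, minus strand): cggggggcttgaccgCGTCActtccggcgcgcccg
Adcy9 (mm9, chr16:4420503-4420537, minus strand): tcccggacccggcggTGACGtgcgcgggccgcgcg

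The wider pathway moved in both directions. Of 49 further genes listed (other receptors, G proteins, cyclases, PKA subunits and inhibitors, anchoring proteins, cAMP-activated exchange factors and desensitisation factors), 43 were in the table used and 27 were tested; the rest were not analysed here. ISO raised 6 and lowered 3 of the 27 without Dox (33.3%, beside 28.0% of all genes) and raised 7 and lowered 6 with Dox (48.1%, beside 32.5%). SR-3420 raised 4 and lowered 2 with Dox (22.2%, beside 9.90%). In edgeR 0 of 27 passed for SR-3420 without Dox, for Dox in DMSO and for the ISO and SR-3420 interactions, where 8, 2, 5 and 3 had an unadjusted p under 0.05. All-gene shares there were 0.766%, 1.18%, 2.18% and 0.757%, too low for a 0 of 27 to say anything about the list. In ISO-treated cells 2 were higher and 2 lower with Dox (14.8%, near the 12.7% of all genes), and in SR-3420-treated cells 3 and 3 (22.2%, beside 11.5%). The median log2 difference in the interactions was -0.06 for ISO and -0.05 for SR-3420, against -0.01 for both over all genes.

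Among the cyclases, Adcy5, which calcium inhibits like Adcy6, was higher with Dox after ISO (27.4 to 57.1 CPM, log2 fold change 1.12, edgeR adjusted p = 0.0044) and after SR-3420 (27.4 to 83.6 CPM, 1.65, adjusted p = 0.000214), and it was higher with Dox than without in both stimulated states (1.27 in ISO and 0.85 in SR-3420, edgeR adjusted p = 0.00493 and 0.0269). Adcy2, which calcium does not inhibit, was higher after ISO without Dox (89.0 to 129 CPM, 0.53, edgeR adjusted p = 0.0146) and lower with Dox than without in ISO-treated cells (-0.68, adjusted p = 0.00367). Gnai2, the α subunit of an inhibitory G protein, was lower after ISO without Dox (108 to 79.2 CPM, -0.44, edgeR adjusted p = 0.035), after ISO with Dox (-0.66, adjusted p = 0.00168) and after SR-3420 with Dox (-0.61, adjusted p = 0.0108). Pkig, an inhibitor of the free catalytic subunits, was higher after ISO in both states (1.11 and 1.062, edgeR adjusted p = 0.0101 and 0.00576); it was singled out after its values were seen.

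Anchoring proteins bind the regulatory subunits and place PKA in the cell. Akap13 rose with ISO from 59.8 to 104 CPM without Dox (log2 fold change 0.78, edgeR adjusted p = 0.000879) and from 46.9 to 133 CPM with Dox (1.49, adjusted p = 3.07e-08), and with SR-3420 in the presence of Dox to 89.4 CPM (0.91, adjusted p = 0.000437). Akap11 was higher after ISO in both states (0.85 and 0.78, edgeR adjusted p = 0.000791 and 0.00136), as was Akap8 (0.56 and 0.51, adjusted p = 0.00377 and 0.00608). Akap2 was higher after ISO with Dox (1.62, edgeR adjusted p = 0.00346) and Akap1 after SR-3420 with Dox (0.61, adjusted p = 0.0207). Akap2 had 4 to 10 counts in each DMSO or SR-3420 library and 10 to 24 in each ISO library. It thus reached the test mainly through the ISO groups where it was high, and its call is given as a description. Akap7 fell with ISO in both states (-0.66 and -0.54, edgeR adjusted p = 0.00919 and 0.0141), and Akap9 fell with ISO with Dox (-0.64, adjusted p = 0.00324). Akap8 was lower with Dox than without in SR-3420-treated cells (-0.44, edgeR adjusted p = 0.042). Akap1, Akap2, Akap7 and Akap9 were named after their values were seen. Rapgef3, which encodes the cAMP sensor EPAC1 and had 2 to 27 counts per library, was lower after ISO with Dox (7.57 to 1.99 CPM, -2.06, edgeR adjusted p = 0.00909). That value rested on DMSO with Dox replicate 1, which had 27 counts against 5 and 4 in the other libraries, and without it the log2 fold change was -1.24 (edgeR adjusted p = 0.229). Rapgef3 was higher with Dox than without in SR-3420-treated cells (1.501, edgeR adjusted p = 0.0301), a call that 5 of the 6 fits leaving out a library lost (1.08 to 2.09).

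Of the genes that quench the receptor, Arrb1 (β-arrestin 1) was higher after ISO without Dox (0.72, edgeR adjusted p = 0.0434) and with Dox (1.09, adjusted p = 0.000987). Grk5, a receptor kinase, was higher after SR-3420 with Dox (0.63, edgeR adjusted p = 0.0179). Grk4, another receptor kinase, was lower with Dox after ISO (24.99 to 11.7 CPM, -1.18, edgeR adjusted p = 0.00151) and after SR-3420 (to 13.03 CPM, -0.99, adjusted p = 0.0182). It was also lower with Dox than without in both stimulated states (-0.93 in ISO and -0.89 in SR-3420, edgeR adjusted p = 0.0323 and 0.0312). Grk4 too was named after its values were seen. In ISO-treated cells Adrbk2 (the receptor kinase GRK3) was higher with Dox than without (5.71 to 25.4 CPM, 2.17, edgeR adjusted p = 5.01e-05), though neither of its responses to ISO against DMSO passed.

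Of the 38 calls among these pathway genes, 18 held in every fit that left out a library and 20 did not. Those of Akap2, Akap8, Akap11, Akap13, Arrb1, Akap9, Grk4, Gnai2, Adcy5 and Pkig for ISO with Dox held, as did those of Akap8, Akap11 and Akap13 for ISO without Dox, of Adcy5 and Akap13 for SR-3420 with Dox and of Adrbk2, Adcy2 and Adcy5 for Dox in ISO. The call of Akap2 keeps the limit of its low counts outside the ISO groups. Those of Gnai2 for ISO without Dox and of Grk4 for Dox in SR-3420 were lost without any 1 of their 6 libraries (edgeR adjusted p up to 0.127 and 0.0926), and that of Arrb1 for ISO without Dox without any of 5 (up to 0.139). In ISO without Dox, Pkig and Akap7 were lost without DMSO replicate 1 (edgeR adjusted p = 0.0811 and 0.0545) and Adcy2 without DMSO replicate 3 (adjusted p = 0.0941). Akap7 for ISO with Dox, Akap1, Grk4 and Grk5 for SR-3420 with Dox, Grk4 for Dox in ISO and Adcy5 for Dox in SR-3420 were each lost in 4 of 6 fits, Gnai2 for SR-3420 with Dox in 3 and Akap8 for Dox in SR-3420 in 5.

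**Figure D5:**
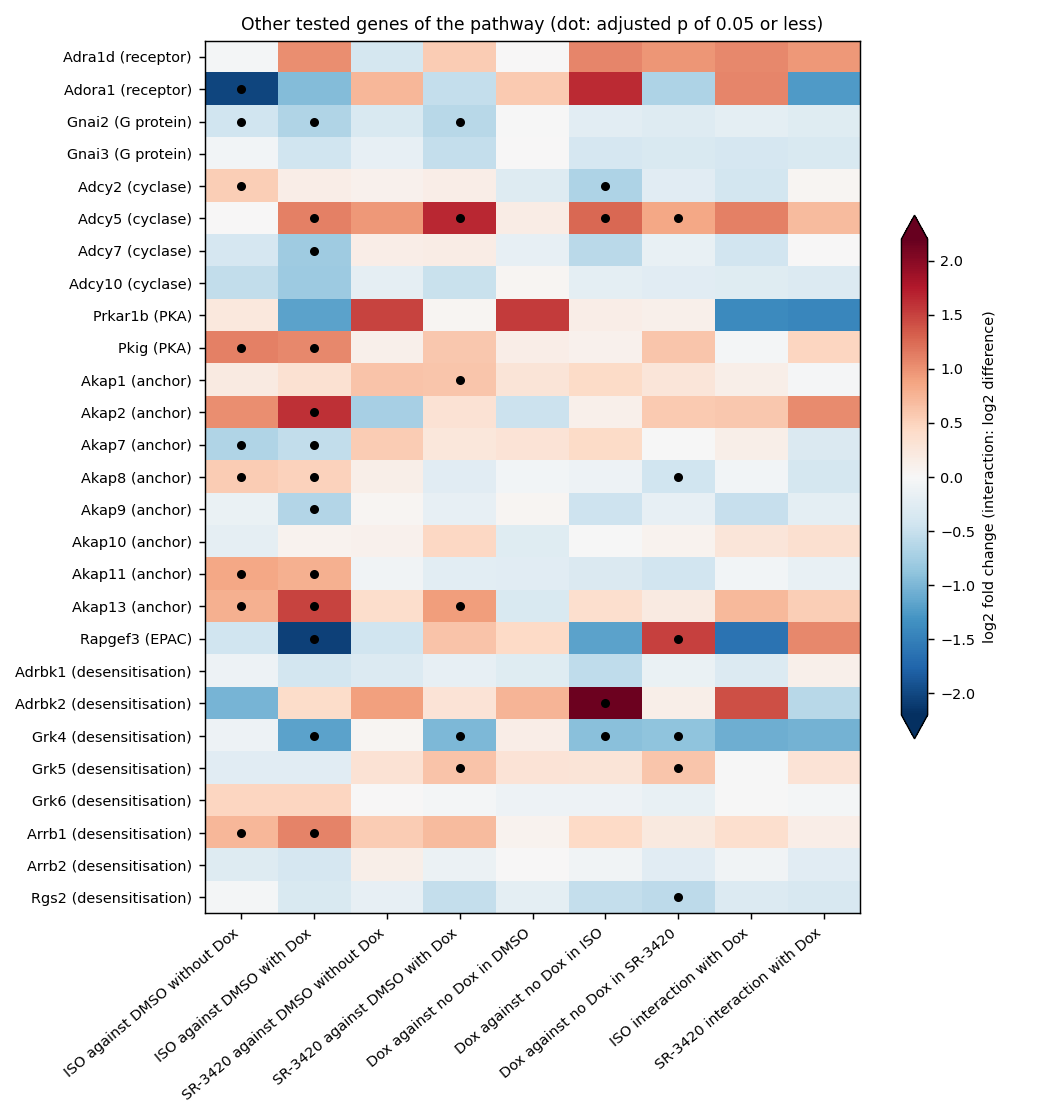
Rows are the 27 further pathway genes that were tested, columns the 9 comparisons, color is the log2 fold change or log2 difference (red higher, blue lower) and a dot marks an adjusted p of 0.05 or less. Dots gather in the columns of ISO with Dox (13) and ISO without Dox (9), and there are 0 in SR-3420 without Dox, in Dox within DMSO and in the interactions.

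Prkar2b was set against every other tested gene by the Pearson correlation of log2 CPM over the 18 libraries, as a description, since the libraries share their groups. The 5 genes most like it were Tmem120a (r = 0.94), a nuclear envelope and membrane protein gene, Picalm (0.94), for a clathrin assembly protein, Lctl (0.94), Pfkfb3 (0.93), for the enzyme that makes the glycolytic activator fructose 2,6-bisphosphate, and Ctcfl (0.93), a paralog of CTCF. Picalm had log2 fold changes for ISO of -0.08 without Dox and 1.54 with Dox, Lctl -0.07 and 1.30, Pfkfb3 0.25 and 1.66, Ctcfl 0.33 and 1.75, and Tmem120a 0.43 and 2.00. Mean levels of Tmem120a ran from 94.2 CPM in DMSO without Dox to 396 in SR-3420 with Dox and 543 in ISO with Dox. Among the other 9 genes of the group Adcy6 was the most like Prkar2b (r = 0.72), and Prkaca (r = -0.25) and Prkacb (r = -0.21) were the least.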

How the data were processed

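Whole-number counts per gene were deposited for 18 libraries by the authors, who aligned reads to mm9 with STAR (2.4.2a), allowed 1 read per position and length in HOMER and counted with iRNA-seq; the table holds raw counts, not normalized. Of 16536 genes, 72.6% had a counted length no more than 10% away from their intron length and 2.27% one as close to their exon length. Positions are from the table, with starts counted from 1, and sequences from the NCBIM37 (mm9) genome.

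The counts were fitted in edgeR 4.0.16 (R 4.3.3) with 1 mean per group over all 18 libraries, TMM factors (0.768 to 1.13), filterByExpr and the quasi-likelihood test, with Benjamini-Hochberg adjustment over 10178 genes; 7494 genes were not tested. An adjusted p of 0.05 or less passed. In 9 contrasts each state was compared with its DMSO group, Dox with no Dox, and the 2 responses with each other. The study used DESeq2, which is an alternative here (1.42.0), as is limma-voom (3.58.1). CPM per library rest on 689910 to 1956565 counts. Ratios and shares of subunits were compared by exact permutation tests, two-sided. The fit was tested on simulated counts. The 10 genes and the pathway and marker lists were chosen with earlier results of these data known, among them the ISO interaction of Prkar2b. Named were the 10 genes, up to 3 of the pathway list with the smallest p among those that passed in a contrast, the 5 genes most like Prkar2b and Abhd5. Alternatives were other scalings, filters, thresholds and tools, a replicate block and leaving out each library.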

Additional observations from a re-analysis of the deposited data

Results flagged for a closer look

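The response of Prkar2b to ISO differed between cells with and without Dox by a log2 difference of 1.73 (SE 0.208, edgeR adjusted p = 1.32e-05), which was tested as the interaction term of the fit. All 3 libraries of ISO with Dox (623 to 774 CPM) lay above all 3 of ISO without Dox (157 to 212 CPM).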

How the results depend on the processing

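The ISO interaction of Prkar2b kept its direction and its call under all 11 other settings (1.66 to 1.77) and in the 12 fits that left out a library, and so did the responses of Prkar2b to ISO and to SR-3420 with Dox, of Adcy3 to ISO in both states, and Dox against no Dox in ISO for Prkar2b. Scaling by library totals alone moved the median of all genes by up to -0.22 (Dox in SR-3420; -0.19 and -0.16 for ISO without and with Dox, -0.21 for SR-3420 with Dox), and with it Prkar2b did not pass for SR-3420 without Dox (0.57, edgeR adjusted p = 0.179, median of all genes -0.057) or for Dox in SR-3420 (0.44, adjusted p = 0.0578), so that 0 of 10 genes passed in each, and Prkar2a did not pass for ISO without Dox (0.63, adjusted p = 0.0666). For SR-3420 without Dox and Dox in SR-3420 this scaling called 36 and 1487 of all 10178 genes. It shifts all genes of a library alike, and the fold changes given for it are not relative to the shifted median. The near-zero response of Prkar2b to ISO without Dox was -0.16 with library totals, beside the median of -0.19, and -0.025 with upper-quartile factors, and -0.064 to 0.14 when a library was left out. Its step from ISO without Dox to DMSO with Dox ran from -0.0025 to 0.20 when a library was left out. Without a filter on low counts Adrb3 also passed for ISO without Dox, SR-3420 with Dox and Dox in ISO. For SR-3420 without Dox 3 genes then passed (Adrb3, Adcy6 and Prkar2b), beside 157 of 15973 genes. In that comparison 2 (Adcy6 and Prkar2b) passed with at least 10 counts in every library, beside 79 of 7457 genes. The same 2 passed there in DESeq2, beside 98 of 10178.

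A further demand for a log2 change of 1 or more left 1 gene for ISO without Dox, 3 for ISO with Dox, 0 for SR-3420 without Dox (Prkar2b 0.62), 1 for SR-3420 with Dox, 1 for Dox in ISO and 0 for Dox in SR-3420 (Prkar2b 0.67), and the excess of ISO over SR-3420 with Dox in Prkar2b (0.60) no longer counted. At an adjusted p of 0.01, 0 genes passed for SR-3420 without Dox (Prkar2b 0.62). When a library was left out, 0 to 1 genes passed there, and Prkar2b ran from 0.53 to 0.67. The SR-3420 interaction of the ratio of Prkar2b to Prkacb ran from -0.012 to 0.25. Of 62 other pairs of gene and comparison, called in no setting, 86 of 1154 refits changed sign. Over all genes, other scalings, filters, sample choices and tools called 36 to 157 for SR-3420 without Dox (78 as reported), 62 to 191 for Dox in DMSO (120), 130 to 358 for the ISO interaction (222) and 42 to 156 for the SR-3420 interaction (77). Leaving out 1 library gave 28 to 53, 77 to 143, 111 to 301 and 28 to 68 for these 4, with the lowest count without DMSO without Dox replicate 1 for the first 3 (equally without ISO with Dox replicate 1 for the ISO interaction) and without SR-3420 without Dox replicate 3 for the last. Without SR-3420 with Dox replicate 1 the calls fell from 1008 to 639 for SR-3420 with Dox and from 1175 to 757 for Dox in SR-3420. Counts of 16 to 50 for Prkar2a, 23 to 55 for Prkacb and 0 to 117 for Adrb3 limit what these genes can show.

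Replicate numbers were shared by all groups, but no source says what a number marks. Same-numbered libraries deviated together (r above 0.1 in 36 of 45 pairs, median 0.148), and all 18 libraries correlated best with their own number, which is a hint from the data and not the design. Under a block for replicate number, Adrb3 also passed for ISO without Dox (0.82, edgeR adjusted p = 0.0344) and for Dox in ISO (1.31, adjusted p = 2.80e-05), and Prkar2a for ISO with Dox (0.60, adjusted p = 0.0248). In the same fit 3 genes passed for SR-3420 without Dox (Adrb3, Adcy6 and Prkar2b), 4 for SR-3420 with Dox (Adrb3, Adcy3, Adcy6 and Prkar2b) and 3 for Dox in SR-3420 (Adcy3, Adcy6 and Prkar2b), and Prkar2b was higher in SR-3420 without Dox than in DMSO with Dox (0.49, edgeR adjusted p = 0.00679). Over all genes the block raised the calls from 222 to 600 for the ISO interaction, from 77 to 339 for that of SR-3420, from 78 to 238 for SR-3420 without Dox, from 1008 to 1568 with Dox, from 120 to 271 for Dox in DMSO and from 1175 to 1834 for Dox in SR-3420.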
